A study of Mus musculus with 30 samples.

Results

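The 10 genes described here encode the machinery that shapes mitotic chromosomes: the condensin subunits, DNA topoisomerase II alpha (Top2a) and the chromosome periphery protein Ki-67 (Mki67). They were found by pairing the mouse Ensembl identifiers of the deposited gene count table with symbols through a reference table of gene names, and each of the 10 symbols matched 1 identifier. The table held 78334 identifiers, of which 51486 were paired with a symbol. The members were given by name, with no threshold on a measured value. They comprised the shared subunits Smc2 (ENSMUSG00000028312.20) and Smc4 (ENSMUSG00000034349.15), 3 subunits of condensin I and 3 of condensin II. The condensin I subunits were Ncapd2 (ENSMUSG00000038252.14), Ncapg (ENSMUSG00000015880.14) and Ncaph (ENSMUSG00000034906.16). Those of condensin II were Ncapd3 (ENSMUSG00000035024.18), Ncapg2 (ENSMUSG00000042029.8) and Ncaph2 (ENSMUSG00000008690.16), and Top2a (ENSMUSG00000020914.18) and Mki67 (ENSMUSG00000031004.9) completed the set. In the GENCODE M21 annotation (GRCm38) the 10 genes lie on 10 chromosomes, Top2a at chr11:98992943-99024189 and Smc4, whose locus also holds Mir15b and Mir16-2, at chr3:69004738-69034623. All 10 passed the filter on low counts in both sequencing runs. The lowest expected count of any member in any library was 9.28, for Ncapg.

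Condensins are ring-shaped complexes in which the ATPases Smc2 and Smc4 pair with a kleisin and a pair of HEAT-repeat subunits, and they extrude DNA loops. Condensin II is present in the nucleus throughout the cell cycle and acts from prophase, whereas condensin I reaches chromosomes after the nuclear envelope breaks down and compacts the chromatid arms further. Top2a passes one DNA duplex through another and resolves entangled sisters, and Ki-67 coats mitotic chromosomes and keeps them apart. Top2a and Mki67 are widely used as markers of cycling cells. In the vessel wall, smooth muscle cells are mostly quiescent and re-enter the cycle on stimulation with platelet-derived growth factor.

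The series held 30 total RNA libraries in 9 groups of cultured mouse cells labelled as aortic smooth muscle cells. Serum was withheld for 48 h, and transfection lasted at least 24 h, with an antisense oligonucleotide (GapmeR) or a plasmid, both at 1 µg/ml. CASC15 is a long non-coding RNA gene beside Sox4, and the labels name knockdowns of "total" and of "long" CASC15 without defining the transcripts. Sequencing run 2 was untreated and held a control GapmeR (2 libraries), a total CASC15 knockdown (2), a control plasmid (3) and overexpression of total CASC15 (3). Run 3 had 4 libraries in each of 5 groups: the control GapmeR untreated, after 24 h of angiotensin II (10 ng/ml) or of human PDGF-BB (10 to 30 ng/ml), and the long CASC15 knockdown untreated or with angiotensin II. Batch names P16 to P19 recur across the groups of run 3, P17 to P19 across the plasmid groups of run 2, and P17 and P18 across its GapmeR groups. The labels do not give the strain or age of the mice, and do not say whether the libraries of a group came from separate cultures or animals, so p-values measure only the spread between these libraries. In the knockdown and overexpression groups, sample titles number the CASC gene upward from one replicate to the next, starting at CASC15, and the titles of the untreated long knockdown include no CASC15. The library names in the labels carry 1 code per group (tCAS for total, lCAS for long), and the libraries were grouped by that code. The growth protocol speaks of mouse and rat cells, while every library is labelled mouse.

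Library totals ran from 18007199 to 21881959 expected counts in run 2 and from 15771490 to 30362047 in run 3. Values below are CPM, counts in proportion to the library total, scaled within a run. Of the smooth muscle markers, Acta2 was present at group means of 108 to 254 CPM and Smtn at 46.7 to 95.5 CPM, whereas Cnn1 did not exceed 0.224, Tagln 3.45 and Myh11 6.67 CPM in any library. The fibroblast-type genes Col1a1 (1275 to 3635 CPM) and Dcn (563 to 2180 CPM) were abundant, but of the other 3 on that list Dpt did not exceed 0.948 and Lum 5.18 CPM, and Pdgfra ran from 1.83 to 65.7 CPM. Of 5 endothelial genes Tie1 was at 0 in every library, Cdh5 did not exceed 0.0633 and Kdr 0.876 CPM, while Vwf reached 6.14 and Pecam1 3.27 CPM. The transcript taken for CASC15 from its position beside Sox4, 2610307P16Rik, was at 5.52 ± 0.53 CPM in the untreated control of run 3 and at 2.87 ± 0.56 with the long knockdown (SD, n = 4 each; log2 fold change −0.95, adjusted p = 0.000832). It was not lower in the libraries labelled total CASC15 knockdown (9.01 against 7.02 CPM, adjusted p = 0.739), and with overexpression it was at 716 against 6.42 CPM. Libraries of batch P19 stood apart for several members, being the highest for Mki67 and Top2a in 4 of the 5 groups of run 3 and in both plasmid groups of run 2. For the comparisons in run 3 and for overexpression, the members that differ most are also given without that batch. The total knockdown had no library of it.

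The promoters of 5 members are shown because the results turn on them: Top2a, Mki67 and Ncapg, which were lower with the long knockdown in some fits, and Ncapd2 and Ncaph2, which did not pass a test there and which rose by unlike amounts with PDGF-BB. Each sequence is the RefSeq entry (GRCm38.p6) from 250 bases before to 50 after the gene's start, read 5′ to 3′ on the gene's strand. Capitals mark 3 kinds of motif, each searched on both strands. They are the CCAAT box (CCAAT), the core of the cell cycle genes homology region (CHR; TTTGAA and its variant TTCGAA) and the E2F core (TTCCCGC and its variants TTGGCGC and also TTCGCGC). On the reverse strand a CCAAT box shares 4 letters with the E2F variant that begins with TTGG, so these can overlap.
Top2a, chr11:99024140-99024439, minus strand: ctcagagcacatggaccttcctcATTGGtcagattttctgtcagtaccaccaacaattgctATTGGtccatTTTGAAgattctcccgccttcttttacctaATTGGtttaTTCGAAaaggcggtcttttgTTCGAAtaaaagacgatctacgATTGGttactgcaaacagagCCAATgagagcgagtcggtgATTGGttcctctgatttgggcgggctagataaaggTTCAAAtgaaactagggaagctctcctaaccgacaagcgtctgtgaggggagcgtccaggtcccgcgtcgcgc
Mki67, chr7:135716330-135716629, minus strand: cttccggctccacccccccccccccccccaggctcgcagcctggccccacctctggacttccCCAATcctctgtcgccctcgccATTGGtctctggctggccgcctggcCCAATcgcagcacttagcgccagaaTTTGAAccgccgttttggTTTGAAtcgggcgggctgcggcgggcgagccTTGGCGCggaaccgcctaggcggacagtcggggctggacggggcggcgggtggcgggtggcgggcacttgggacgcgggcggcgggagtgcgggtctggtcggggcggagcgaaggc
Ncapg, chr5:45669675-45669974, plus strand: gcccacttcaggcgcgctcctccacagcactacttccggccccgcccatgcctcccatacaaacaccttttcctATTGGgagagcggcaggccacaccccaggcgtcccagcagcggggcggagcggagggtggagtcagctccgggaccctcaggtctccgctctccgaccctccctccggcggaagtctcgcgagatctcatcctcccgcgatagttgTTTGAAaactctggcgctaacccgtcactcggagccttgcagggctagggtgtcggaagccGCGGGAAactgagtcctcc
Ncapd2, chr6:125191537-125191836, minus strand: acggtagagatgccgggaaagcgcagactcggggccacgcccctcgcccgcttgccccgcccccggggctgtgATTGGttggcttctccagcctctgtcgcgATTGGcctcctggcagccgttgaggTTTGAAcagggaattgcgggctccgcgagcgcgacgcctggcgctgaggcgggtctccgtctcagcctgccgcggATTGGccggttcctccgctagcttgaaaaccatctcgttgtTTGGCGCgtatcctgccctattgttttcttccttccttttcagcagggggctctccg
Ncaph2, chr15:89355469-89355768, plus strand: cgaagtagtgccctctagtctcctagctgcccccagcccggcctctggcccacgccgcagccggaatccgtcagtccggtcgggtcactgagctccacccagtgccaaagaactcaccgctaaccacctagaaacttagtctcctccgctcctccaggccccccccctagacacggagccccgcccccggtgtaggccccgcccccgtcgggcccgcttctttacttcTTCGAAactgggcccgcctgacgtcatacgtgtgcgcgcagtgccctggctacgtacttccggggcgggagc

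The Top2a window held 6 CCAAT boxes, 4 CHR cores and 0 E2F cores. Mki67 had 3 CCAAT boxes, 2 CHR cores and 1 E2F core, Ncapg had 1 of each kind, and Ncapd2 had 3 CCAAT boxes, 1 CHR core and 1 E2F core. Ncaph2 held 1 CHR core and neither of the other kinds. The RefSeq table had 10 entries of 9 members (Ncapd3 had 2), and 5 of them held a CCAAT box, 8 a CHR core and 6 an E2F core. Among all 32851 mouse promoter windows of that length, 37.4% held a CCAAT box, 19.2% a CHR core and 8.1% an E2F core. All 3 kinds occurred together in 3 of the 10 members' entries and in 0.4% of all windows. Those 3 were Mki67, Ncapg and Ncapd2. These matches are letters in a window and not shown to be bound.

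Per unit of length, the condensin II kleisin Ncaph2 was the most abundant member in the serum-starved, untreated control of run 3. Its level was 115 (range 111 to 120), where the level is counts per kilobase of the longest annotated transcript scaled to the same sum in every library. Smc4 followed at 54.8 (50.7 to 58.6) and Top2a at 41.5 (31.6 to 55.3), and these 2 overlapped. The condensin I subunit Ncapd2 was at 28.1 (25.7 to 30.1), below every Top2a library and above the members that followed. Ncaph at 11.9, Smc2 at 10.7, Ncapd3 at 9.87, Ncapg2 at 8.62 and Mki67 at 7.45 each overlapped the next in that order. Ncapg, a HEAT-repeat subunit of condensin I, was the lowest at 3.16 (2.21 to 5.22), overlapping Mki67. With the mean instead of the longest transcript length, Ncapd2 and Top2a came to 73.3 and 72.1, so the order of the members rests on the length used. In the untreated GapmeR control of run 2, Top2a was at 7.26, Mki67 at 1.47 and Ncapg at 0.946, and the run cannot be told apart from other differences between those groups.

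**Figure D1:**
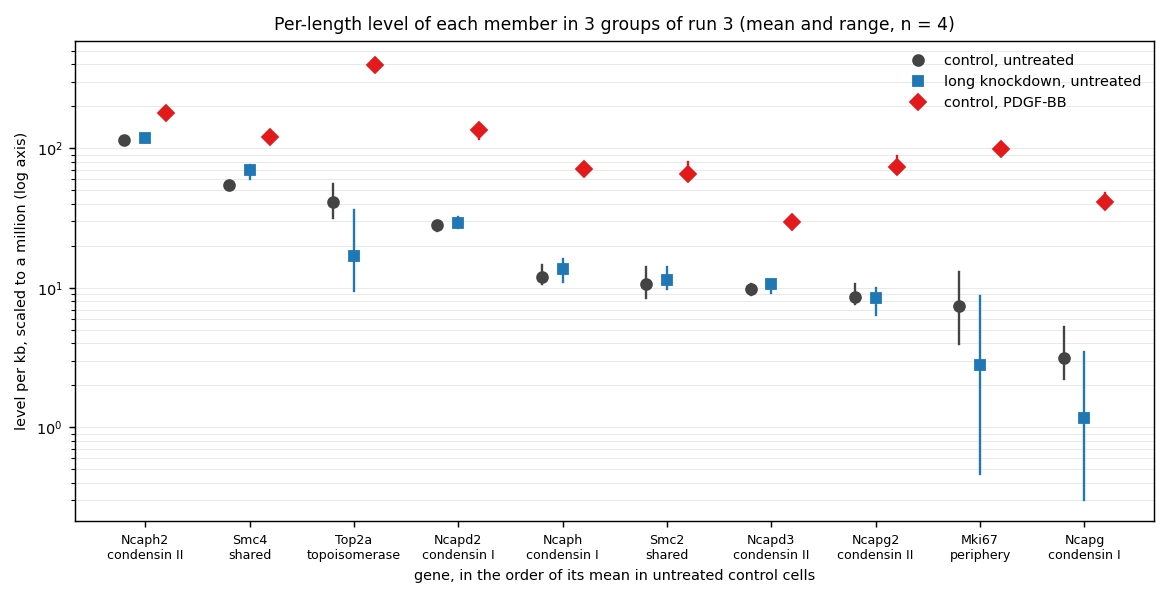
Level per length of each member in the untreated control and PDGF-BB libraries of run 3 and in the long knockdown (log axis, counts per kilobase of longest transcript scaled to a common sum, points are means and lines the range of 4 libraries). Ncaph2 was highest in the untreated control at 115, and Top2a was highest with PDGF-BB at 397.

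PDGF-BB raised all 10 members. Their median log2 fold change against the untreated control was 2.66, beside −0.02 over the 15103 genes tested, and 23.6% of all genes tested were called higher. Every member was higher in 4 of 4 batches with no overlap between the groups, a pattern that was not counted over all genes. The smallest increase was that of the condensin II kleisin Ncaph2 and the largest were those of Mki67 and Ncapg. In bulk RNA, more cells that express a gene and more of its RNA per cell cannot be told apart.

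Of the shared subunits, Smc2 was at 21.0, 16.6, 17.5 and 28.8 CPM in the untreated control (P16 to P19) and at 124, 126, 123 and 167 CPM with PDGF-BB. All 4 treated libraries lay far above all 4 controls, and P19 was the highest in both groups. Smc2 thus rose by a log2 fold change of 2.68 (adjusted p = 1.17e-09, SE 0.18). Adjusted p-values here and below are from the quasi-likelihood test of edgeR, adjusted over all genes by Benjamini-Hochberg. Smc4 rose less, from 79.1 to 90.5 CPM in the controls to 185 to 203 CPM, a log2 fold change of 1.19 (adjusted p = 1.02e-09, SE 0.08). Smc2 and Smc4 pair in equal numbers in the complex. Their transcripts per length stood at a ratio of Smc4 to Smc2 of 5.34 ± 1.16 in the control and 1.85 ± 0.23 with PDGF-BB (SD, n = 4 each).

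All 3 condensin I subunits rose. Ncapg was at 3.74, 3.74, 3.14 and 7.75 CPM in the control and at 59.6, 54.6, 63.3 and 73.8 CPM with PDGF-BB, a log2 fold change of 3.75 (adjusted p = 9.17e-05, SE 0.60). Ncapd2, which with Ncapg binds the kleisin, went from 46.7, 43.1, 46.6 and 52.1 CPM to 248, 253, 250 and 208 CPM. Its P19 library was the lowest of the treated libraries, and the gene rose by 2.34 on the log2 scale (adjusted p = 7.91e-13, SE 0.09). The kleisin Ncaph rose from between 10.3 and 14.8 CPM to between 69.2 and 80.1 CPM (log2 fold change 2.64, SE 0.15, adjusted p = 1.08e-10). Ncapg overlaps Lcorl on the opposite strand, and whether counting used strand is not given in the sources used here, so reads of the overlap cannot be assigned with certainty. The expected counts of Ncapg, and those of Ncaph2, were fractional in all 20 libraries of run 3 and in 0 of run 2. The cause of this difference between the runs was not tested. Lcorl was at 25.9 CPM in the control and 30.2 CPM with PDGF-BB.

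The condensin II subunits rose by unequal amounts. Ncapg2, the counterpart of Ncapg, was at 13.6, 12.9, 13.6 and 18.7 CPM in the control and at 120, 123, 121 and 160 CPM with PDGF-BB, a log2 fold change of 3.15 (adjusted p = 7.32e-10, SE 0.20). Ncapd3 rose from 18.3 to 21.0 CPM in the controls to 54.5 to 67.1 CPM, a log2 fold change of 1.65 (adjusted p = 3.21e-11, SE 0.09). The kleisin Ncaph2 was at 136, 143, 134 and 138 CPM in the control and at 239, 204, 223 and 226 CPM with PDGF-BB. The lowest treated library still lay above the highest control, and the log2 fold change was 0.70 (adjusted p = 5.91e-09, SE 0.06), 1.62-fold. Ncaph2 shares bases with Sco2 and Tymp on the opposite strand, and Sco2 was at 9.14 CPM in the control and 9.04 CPM with PDGF-BB.

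Top2a and Mki67 were among the members that rose most. Top2a was at 72.9, 59.6, 74.9 and 108 CPM in the control and at 780, 805, 804 and 755 CPM with PDGF-BB (log2 fold change 3.32, SE 0.45, adjusted p = 2.02e-05). Mki67 was at 22.3, 14.5, 24.1 and 48.8 CPM in the control and at 391, 376, 387 and 353 CPM with PDGF-BB (log2 fold change 3.77, SE 0.86, adjusted p = 0.00209). For both genes P19 was the highest control and the lowest treated library, and the treated libraries were far closer to one another, in proportion, than the controls. Without batch P19 the log2 fold changes were 3.52 for Top2a, 4.24 for Mki67 and 4.06 for Ncapg. Per length, Top2a was the most abundant member with PDGF-BB at 397, followed by Ncaph2 at 178, Ncapd2 at 137 and Smc4 at 120. All 10 members were also called without that batch and with the replicate block. Between the same groups the summed CPM of 8 smooth muscle markers ranged from 242 to 276 in the control and from 196 to 220 with PDGF-BB, and that of 4 epithelial markers from 97.6 to 129 and from 157 to 199, nearly all of it Cdh1. Epcam did not exceed 0.441 CPM in any library. Within the smooth muscle list Acta2 had a mean of 212 CPM in the control and 111 CPM with PDGF-BB, and Smtn of 46.7 and 95.5 CPM. Of the fibroblast-type genes, Dcn had means of 1592 and 664 CPM and Pdgfra of 15.1 and 3.10 CPM, while Col1a1 went from 2149 to 3016 CPM, and the summed CPM of the 5 overlapped (3414 to 3890 and 2994 to 4216). The part of these markers in the result was not tested.

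**Figure D2:**
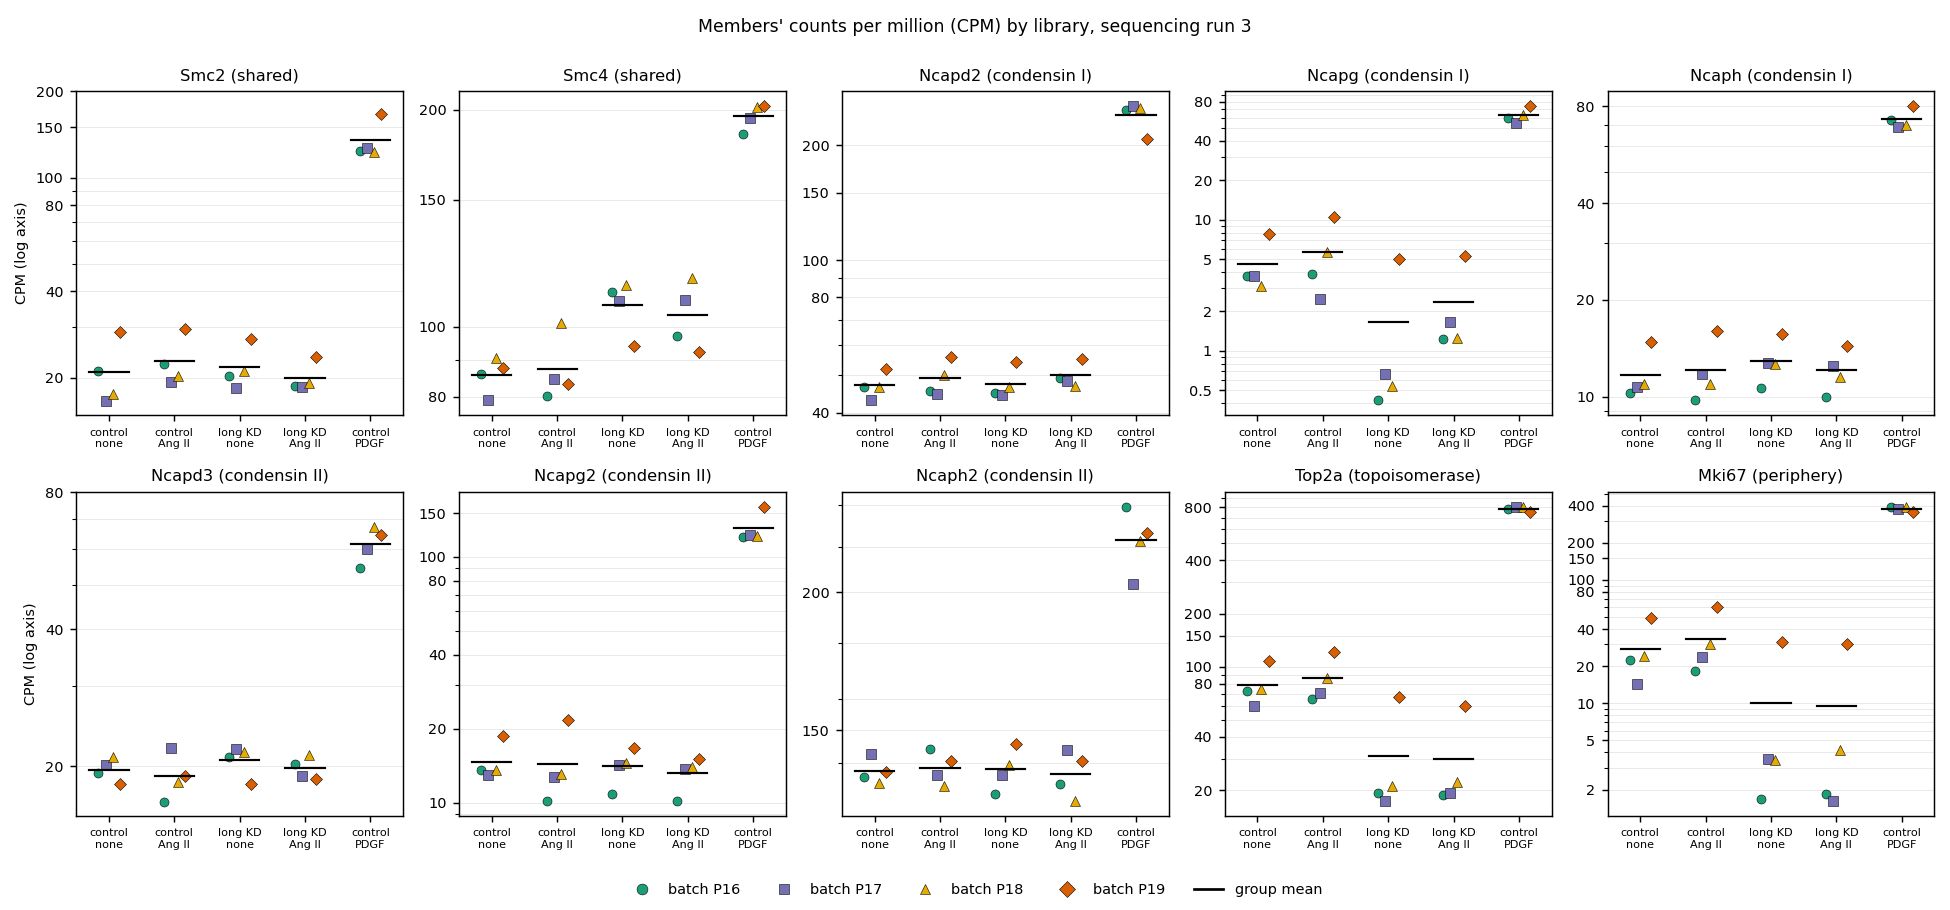
CPM of each member in every library of run 3 (log axes, 1 panel per gene; symbols mark batches P16 to P19, bars are group means of 4 libraries; none is untreated, Ang II is angiotensin II, KD is knockdown). With PDGF-BB all members lie above their controls, and in the long knockdown Top2a, Mki67 and Ncapg are low in P16 to P18 and higher in P19.

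The untreated long CASC15 knockdown was compared with the untreated control GapmeR. Top2a fell and Smc4 rose. Mki67 and Ncapg were lower in 4 of 4 batches but did not pass the test over all libraries without a term for the batch. The other 6 members had log2 fold changes between −0.07 and 0.14. Thus 1 of the 10 members was called higher and 1 lower, near the shares over all 15103 genes, of which 12.3% were called higher and 12.8% lower. This comparison and that of PDGF-BB share the untreated control libraries.

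Top2a was at 72.9, 59.6, 74.9 and 108 CPM in the control (P16 to P19) and at 19.3, 17.4, 21.2 and 67.7 CPM in the knockdown. P16, P17 and P18 of the knockdown lay below every control, whereas its P19 library lay inside the control range. The mean was 39.8% of that of the control, and the log2 fold change was −1.33 (SE 0.43, 95% interval −2.25 to −0.41, adjusted p = 0.0331). With the batch as a replicate block it was −1.46 (adjusted p = 0.00145, SE 0.29), and without P19 −1.85 (adjusted p = 1.45e-09, SE 0.11). Over 17 alternative settings the adjusted p of Top2a ran from 1.45e-09 to 0.0992 and passed 0.05 in 10. The call was lost on leaving out the P16 or P19 control, or the P16, P17 or P18 knockdown library, and also with no filter on low counts and with the compared groups alone, each time with Smc4 as the 1 member left.

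Mki67 was at 22.3, 14.5, 24.1 and 48.8 CPM in the control and at 1.68, 3.56, 3.48 and 31.5 CPM in the knockdown. Its P19 knockdown library exceeded the P16, P17 and P18 controls, and the other 3 knockdown libraries lay far below them. The log2 fold change was −1.46 (SE 0.86, 95% interval −3.29 to 0.37, adjusted p = 0.234), with the replicate block −1.73 (adjusted p = 0.0419), and without P19 −2.84 (adjusted p = 7.07e-05, SE 0.35). Within batches the log2 ratio of knockdown to control ran from −3.73 to −0.63. Over 16 alternatives the adjusted p ran from 7.07e-05 to 0.488 and passed 0.05 in 3.

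Ncapg showed the same split between P19 and the rest. It was at 3.74, 3.74, 3.14 and 7.75 CPM in the control and at 0.420, 0.668, 0.544 and 4.99 CPM in the knockdown. The P16 to P18 knockdown libraries were below every control and P19 was above the controls of P16 to P18. The log2 fold change was −1.50 (adjusted p = 0.118, SE 0.68), with the replicate block −1.62 (adjusted p = 0.0134), and without P19 −2.71 (adjusted p = 7.53e-08, SE 0.29). Over 17 alternatives the adjusted p ran from 7.53e-08 to 0.328 and passed 0.05 in 3. Lcorl, on the opposite strand, was at 25.9 CPM in the control and 29.9 CPM in the knockdown.

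Smc4 went the other way. It was at 86.0, 79.1, 90.5 and 87.6 CPM in the control and at 112, 109, 114 and 94.0 CPM in the knockdown. Every knockdown library lay above every control, and here P19 was the lowest knockdown library. The log2 fold change was 0.32 (SE 0.08, 95% interval 0.15 to 0.49, adjusted p = 0.0069), and without P19 it was 0.38 (adjusted p = 0.000309). Its adjusted p passed 0.05 in 17 of 17 alternatives, from 0.00018 to 0.0319, but in 1 of these a log2 fold change of at least 1 was also asked for and Smc4 was then not called. Its partner Smc2 was at 21.0, 16.6, 17.5 and 28.8 CPM in the control and at 20.3, 18.4, 21.1 and 27.3 CPM in the knockdown, which overlapped.

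The 6 members that passed in none of these fits were Smc2, Ncapd2, Ncaph, Ncapd3, Ncapg2 and Ncaph2. The 95% intervals of their log2 fold changes lay within −0.48 to 0.45, and with the replicate block within −0.27 to 0.32, and the lowest adjusted p was 0.546 and 0.196. Ncapd2, for example, was at 43.1 to 52.1 CPM in the control and at 44.5 to 54.1 CPM in the knockdown. Ncapg2 was at 12.9 to 18.7 and 10.8 to 16.7 CPM, and Ncaph2 at 134 to 143 and 131 to 146 CPM. With the replicate block 1 member was higher and 3 were lower, where 20.0% of all genes were called higher and 20.6% lower. Without P19 the members' counts were also 1 and 3, beside 18.7% and 21.3% of all genes. The summed CPM of the 4 epithelial markers ranged from 36.6 to 69.9 in the knockdown and from 97.6 to 129 in the control, with 1 and 2 of the 4 at 1 CPM or more, and that of the 8 smooth muscle markers from 231 to 329 and from 242 to 276. Pdgfra had a mean of 47.4 CPM in the knockdown and 15.1 CPM in the control, and Col1a1 of 1379 and 2149 CPM. The part of these markers in the result was not tested.

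Under angiotensin II the knockdown and control were separate libraries from those above, fitted in the same model. Top2a fell and Smc4 rose again. There 1 member was called higher and 1 lower, where 13.4% of all genes were called higher and 13.3% lower. Top2a was at 65.3, 70.9, 86.4 and 121 CPM in the control and at 18.8, 19.2, 22.3 and 60.0 CPM in the knockdown. Here the groups did not overlap, with the P19 knockdown library just below the lowest control. On the log2 scale the change was −1.51 (SE 0.44, 95% interval −2.44 to −0.59, adjusted p = 0.017), with the replicate block −1.61 (adjusted p = 0.000718), and without P19 −1.89 (SE 0.11). Over 17 alternatives the adjusted p of Top2a ran from 1.09e-09, without P19, to 0.0567 and passed 0.05 in 13.

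Smc4 under angiotensin II was at 80.2, 84.7, 101 and 83.4 CPM in the control and at 97.0, 109, 117 and 92.3 CPM in the knockdown. The groups overlapped through the P18 control, and within each batch the knockdown was higher. This was a log2 fold change of 0.25 (adjusted p = 0.0319, SE 0.08), with the replicate block 0.25 (adjusted p = 0.00228), and without P19 0.27 (adjusted p = 0.00656). Its adjusted p passed 0.05 in 11 of 17 alternatives, and in 1 of these a log2 fold change of at least 1 was also asked for and it was then not called. Leaving out the P19 control, the P17 knockdown or the P18 knockdown library left 0 members called, neither Smc4 nor Top2a. Leaving out the P16 or P17 control ended the call of Smc4, as did fitting the compared groups alone, and leaving out the P16 knockdown library that of Top2a.

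Mki67 was at 18.3, 23.7, 30.3 and 60.3 CPM in the angiotensin II control and at 1.85, 1.62, 4.19 and 30.1 CPM in the knockdown. The P19 knockdown library was again within the range of the controls. The change on the log2 scale was −1.80 (SE 0.87, 95% interval −3.65 to 0.05, adjusted p = 0.141), with the replicate block −2.08 (adjusted p = 0.0177), and over 16 alternatives the adjusted p ran from 2.82e-05 to 0.34. The lowest was without P19, where the change was −3.23 (SE 0.36) and the gene was called. Ncapg was at 3.86, 2.50, 5.67 and 10.6 CPM in the control and at 1.23, 1.67, 1.25 and 5.33 CPM in the knockdown, lower in 4 of 4 batches. On the log2 scale its change was −1.23 (adjusted p = 0.177, SE 0.65), with the replicate block −1.28 (adjusted p = 0.0316), and over 17 alternatives the adjusted p ran from 1.91e-05 to 0.494. Without P19, which gave the lowest, the change was −1.52 (SE 0.24), and Ncapg was called there too.

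With the replicate block Smc2 also passed under angiotensin II (log2 fold change −0.18, adjusted p = 0.0447), where without the block it was −0.19 (adjusted p = 0.456). Smc2 was at 22.3, 19.3, 20.2 and 29.6 CPM in the control and at 18.6, 18.5, 19.2 and 23.6 CPM in the knockdown, lower in 4 of 4 batches with overlapping groups. It passed in 1 of 17 alternatives, and without P19 it was at −0.14 (adjusted p = 0.223). The block thus gave 1 member higher and 4 lower, where 20.4% of all genes were called higher and 20.9% lower, and without P19 the counts were 1 and 3, beside 19.1% and 20.9% of all genes. The remaining 5 members, Ncapd2, Ncaph, Ncapd3, Ncapg2 and Ncaph2, had log2 fold changes of −0.12 to 0.05, with 95% intervals within −0.54 to 0.32. The 4 epithelial markers summed to 35.4 to 64.5 CPM in the knockdown and 104 to 128 CPM in the control. Pdgfra had means of 47.2 CPM in the knockdown and 13.8 CPM in the control, and Col1a1 of 1457 and 2061 CPM. The part of these markers in the result was not tested.

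**Figure D3:**
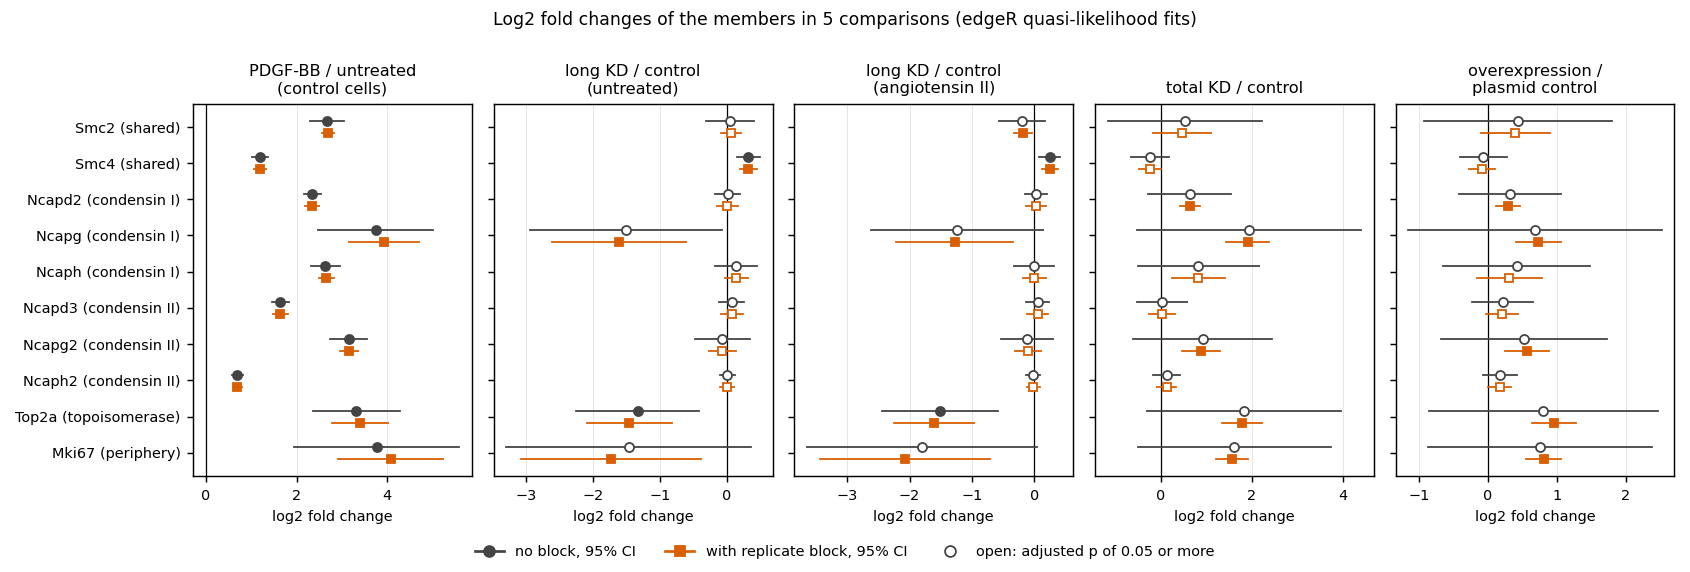
Log2 fold change of each member in 5 comparisons (points with 95% intervals, circles without and squares with the replicate block, open symbols at an adjusted p of 0.05 or more). All members lie above 0 with PDGF-BB, from 0.70 for Ncaph2 to 3.77 for Mki67, and in the long knockdown the intervals of Mki67 and Ncapg narrow with the block.

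Angiotensin II alone changed no member detectably. In cells with the control GapmeR, the members' log2 fold changes ran from −0.04 to 0.26, with 95% intervals within −1.45 to 1.97. The widest intervals were those of Mki67 and Ncapg. Without P19 the fold changes ran from −0.15 for Ncapg2 to 0.24 for Mki67, and no member was called. Top2a was at 59.6 to 108 CPM without and 65.3 to 121 CPM with angiotensin II. Across all genes 0% were called by edgeR, 156 genes had an unadjusted p under 0.05, and DESeq2 called 1 gene and 0 members. In long knockdown cells the log2 fold changes ran from −0.12 to 0.53 within −2.01 to 2.08, again with 0% of genes called, 174 genes at an unadjusted p under 0.05, and 0 genes called by DESeq2. Ncapg had the largest estimate there and was higher in 4 of 4 batches by 0.10 to 1.55 on the log2 scale. Without P19 its log2 fold change was 1.35 (SE 0.34, unadjusted p = 0.000715, adjusted p = 0.999). The difference between the knockdown's effect with and without angiotensin II was itself tested. For the members it ran from −0.33 to 0.27 with intervals within −2.92 to 2.27, and 0% of genes were called (166 at an unadjusted p under 0.05, 2 by DESeq2, of which 0 were members). Without P19 Ncapg stood at 1.19 (SE 0.40, unadjusted p = 0.00705, adjusted p = 0.995) and the other members at −0.39 to 0.09.

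The balance of condensin I and condensin II transcripts is given as a description. Over the 3 subunits of each complex, the mean log2 CPM of condensin I minus that of condensin II was −1.35 ± 0.24 in the untreated control of run 3 (SD, n = 4). It was −0.24 ± 0.05 with PDGF-BB, −1.22 ± 0.31 with angiotensin II, −1.98 ± 0.57 with the long knockdown and −1.62 ± 0.38 with the knockdown and angiotensin II. The PDGF-BB libraries, at −0.31 to −0.18, did not overlap the controls, at −1.51 to −0.98. The knockdown libraries, at −2.30 to −1.13, overlapped them, through P19. Without P19 the means were −1.47 in the untreated control, −0.21 with PDGF-BB, −1.33 with angiotensin II, −2.26 in the knockdown and −1.81 in the knockdown with angiotensin II. On the per-length scale the PDGF-BB value was 0.02 and the control value −1.10, so the sign with PDGF-BB rests on the scale and the direction of the difference between groups does not. Within pairs of counterpart subunits, the per-length ratio of the kleisins Ncaph2 to Ncaph was 9.83 ± 1.56 in the control and 2.50 ± 0.18 with PDGF-BB. The ratio of Ncapd2 to Ncapd3 was 2.86 ± 0.38 and 4.67 ± 0.68, without overlap between the groups. The ratio of Ncapg to Ncapg2 was 0.356 ± 0.093 in the control, 0.568 ± 0.042 with PDGF-BB and 0.124 ± 0.152 in the long knockdown, where P19 alone was at 0.352 and the mean without it was 0.0478. That P19 library lay inside the control range of 0.273 to 0.49, so this pair overlapped between the groups through P19. The other pairs also overlapped between the untreated knockdown and its control: Ncapd2 to Ncapd3 stood at 2.76 ± 0.50 against 2.86 ± 0.38, and Ncaph2 to Ncaph at 8.88 ± 1.04 against 9.83 ± 1.56, the latter a difference toward condensin I. Of the 3 pairs, that of Ncapg was thus the one with a large difference in the direction of the condensin I minus condensin II mean.

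The level of Top2a was set against those of the condensins in the same way. Its log2 CPM exceeded the mean of the 8 condensin subunits by 1.61 ± 0.20 in the untreated control, by 2.68 ± 0.12 with PDGF-BB and by 0.25 ± 0.66 in the long knockdown (SD, n = 4 each). Under angiotensin II the values were 1.68 ± 0.16 in the control and 0.17 ± 0.63 in the knockdown. In the untreated knockdown the libraries were at 0.03, −0.27, 0.00 and 1.22 (P16 to P19), so the mean rests on P19. Without P19 it was −0.08 there and −0.13 in the knockdown with angiotensin II, below 0, beside 1.53 and 1.61 in their controls and 2.74 with PDGF-BB. The PDGF-BB libraries (2.51 to 2.78) and the knockdown libraries (−0.27 to 1.22) each lay outside the control range of 1.35 to 1.83. No test was made on these composites, since they combine the members tested above.

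**Figure D4:**
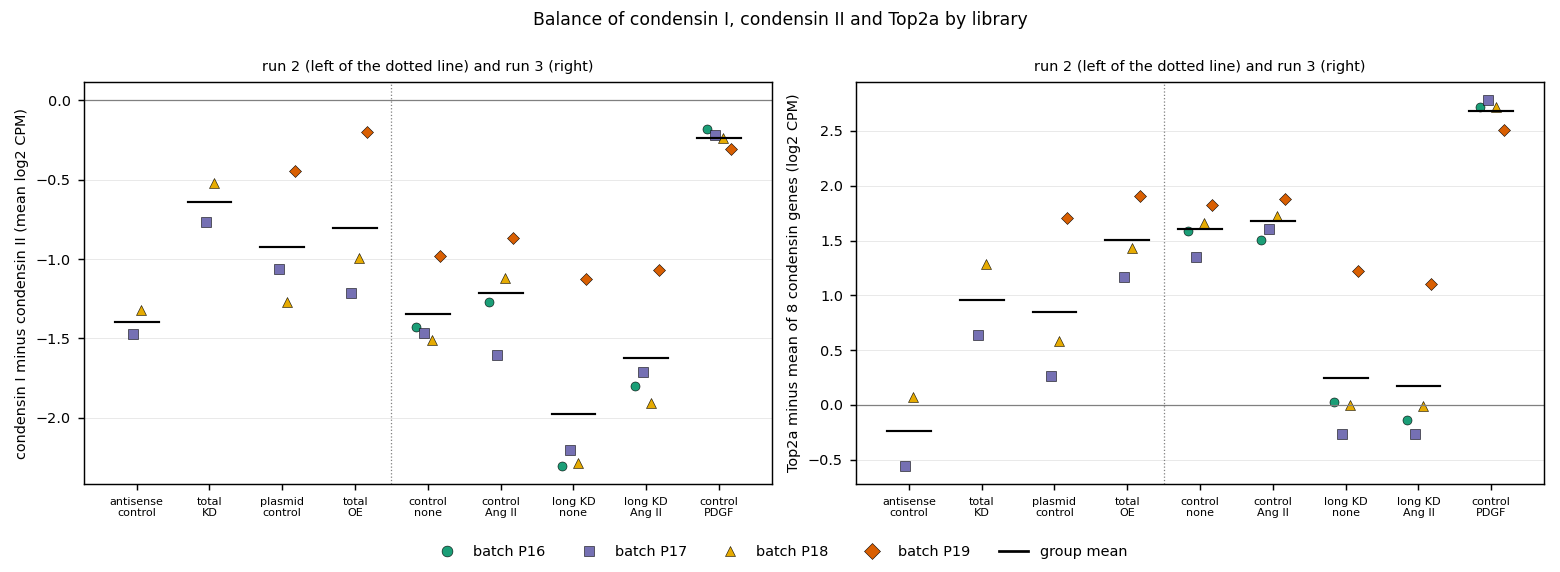
Mean log2 CPM of condensin I minus condensin II (left) and log2 CPM of Top2a minus the mean of the 8 condensin subunits (right) for every library of the 9 groups (symbols mark batches, bars are group means). With PDGF-BB condensin I lies near condensin II at −0.24, and in the long knockdown Top2a lies near the condensins at 0.25, or −0.08 without P19, which lies apart at 1.22.

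Across the libraries of run 3 the members varied in how closely they followed Top2a. The 20 libraries share the batches and include the PDGF-BB group, in which every member was higher. Each pair of members had a lower r without that group (16 libraries), and these values are given as descriptions. The 16 are control and long knockdown libraries with or without angiotensin II, so their values partly restate the knockdown comparisons. Top2a and Mki67 had a Pearson r of 0.974 over the 16 libraries (log2 CPM), Ncapg and Top2a 0.92, and Ncapg and Mki67 0.903. Ncaph and Ncapg2 had an r of 0.892. Smc4 ran against this group, with an r of −0.791 to Top2a, −0.745 to Ncapg and −0.732 to Mki67, whereas over all 20 libraries its r to Top2a was 0.682. Ncapd3 also did so over the 16 libraries, with an r of −0.521 to Top2a, −0.678 to Ncapg and −0.477 to Mki67. Among all genes tested, those whose pattern was most like that of Top2a over the 20 libraries began with Cdca3 (r = 0.996, and 0.985 over 16), an adaptor for degradation of mitotic entry inhibitors, and those most like Mki67 with Aspm, a spindle pole protein, and Ccnb1, the mitotic cyclin B1 (r = 0.997 each, 0.993 over 16). Among the genes most like Ncapg was the cytokinesis factor Ect2 (0.983 and 0.937). For Smc2, Ncaph and Ncapg2 the first was Atad2, an S-phase chromatin ATPase (0.996, 0.993 and 0.993; 0.901, 0.848 and 0.809 over 16). Smc4 was most like Dek, a chromatin architectural protein (0.98 and 0.884), and Ncapd2 most like the maintenance methyltransferase Dnmt1 (0.991 and 0.741). Ncapd3 and Ncaph2 were most like Haus3 and Slbp, at 0.98 each over 20 libraries but at 0.404 and 0.548 over 16.

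In run 2 no member passed the test between the libraries labelled total CASC15 knockdown and their control, where 2.07% of all 15350 genes were called in either direction by edgeR (1975 had an unadjusted p under 0.05) and DESeq2 also called 0 members. With 2 libraries each, the values were as follows. Top2a was at 9.71 and 17.1 CPM in the control (P17, P18) and at 29.3 and 65.7 CPM in the knockdown. Mki67 was at 3.97 and 6.52 CPM and at 9.78 and 22.3 CPM. Ncapg was at 0.980 and 1.68 CPM and at 3.31 and 6.90 CPM. For these 3 genes P18 was the higher library of each group, and the groups did not overlap. Groups of 2 libraries separate easily, and the share of all genes that did so was not counted. Smc4 did not overlap either but was lower, at 76.4 and 86.2 CPM in the control and 62.2 and 76.2 CPM in the knockdown. The log2 fold changes were 1.83 for Top2a (adjusted p = 0.477, SE 0.94), 1.62 for Mki67 (adjusted p = 0.551, SE 0.93) and 1.94 for Ncapg (adjusted p = 0.526, SE 1.09).

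With the replicate block 5 members rose in that comparison, where 8.76% of all genes were called higher. They were Mki67 (log2 fold change 1.57, adjusted p = 0.000168), Ncapg (1.91, adjusted p = 0.000306), Top2a (1.79, adjusted p = 0.000612), Ncapd2 (0.64, adjusted p = 0.00162) and Ncapg2 (0.88, adjusted p = 0.0102). Ncapd2 was at 37.4 and 46.0 CPM in the control and 58.4 and 71.5 CPM in the knockdown. Over 12 alternatives Mki67 passed in 2, Top2a in 2, Ncapd2 in 2, Ncapg in 3 and Ncapg2 in 1, with adjusted p-values reaching 1.00 for each. Ncaph also passed in 1, with the compared groups alone (adjusted p = 0.049). It and the other 4 members not called with the block had log2 fold changes of −0.23 to 0.83, with 95% intervals within −1.17 to 2.23. The macrophage markers, 5 genes, summed to 17.4 to 21.0 CPM in these knockdown libraries and to 0.579 to 0.790 CPM in their control, with 2 and 0 of the 5 at 1 CPM or more. Cd68 made up most of it (15.8 against 0.430 CPM), while Ptprc stayed at or below 0.0998 and Adgre1 at or below 0.0448 CPM in all libraries. The 4 epithelial markers summed to 44.2 to 45.1 CPM in the control and 72.5 to 95.5 CPM in the knockdown, and the 5 endothelial ones to 2.76 to 3.85 and 5.72 to 9.50 CPM, with Tie1 at 0. The 8 smooth muscle markers summed to 175.0 to 195.4 and 195.5 to 214.1 CPM, where Myh11 had means of 0.989 and 5.49 CPM and Acta2 of 114 and 108 CPM. The 5 fibroblast-type genes summed to 2927 to 2962 CPM in the control and 2605 to 2745 CPM in the knockdown, with Pdgfra at 35.8 and 17.9 CPM. The part of these markers in the result was not tested, and the target transcript was not lower in these libraries, as given above.

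Overexpression of total CASC15 from a plasmid likewise gave 0 members called against the control plasmid, where 1.65% of all genes were called in either direction by edgeR (2295 had an unadjusted p under 0.05) and DESeq2 called 0 members. Top2a was at 21.5, 30.4 and 124 CPM in the control (P17 to P19) and at 44.6, 74.0 and 189 CPM with overexpression. Mki67 was at 9.19, 14.6 and 49.0 CPM and at 16.4, 28.4 and 77.9 CPM. In both groups P19 was several times the other libraries, and the groups overlapped, while within each of the 3 batches overexpression was higher. The log2 fold changes were 0.81 for Top2a (adjusted p = 0.657, SE 0.73) and 0.76 for Mki67 (adjusted p = 0.676). Ncapg was at 2.25, 4.13 and 15.8 CPM and at 3.89, 7.42 and 24.2 CPM (log2 fold change 0.69, adjusted p = 0.746).

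With the replicate block the same 5 members passed as in the total knockdown comparison, all higher, where 9.40% of all genes were called higher. The log2 fold changes were 0.96 for Top2a (adjusted p = 0.00264), 0.81 for Mki67 (adjusted p = 0.000808), 0.73 for Ncapg (adjusted p = 0.00633), 0.57 for Ncapg2 (adjusted p = 0.0204) and 0.29 for Ncapd2 (adjusted p = 0.0295). Over 15 alternatives Top2a and Mki67 passed in 2 each and the other 3 in 1 each, and the highest adjusted p-values ran from 0.925 to 0.998. Without P19 and with the block 4 of the 5 passed and Ncapd2 did not (adjusted p = 0.161). Without P19 and without the block none was called (Top2a 1.19, adjusted p = 0.195; Mki67 0.91, adjusted p = 0.31). The other 5 members had log2 fold changes of −0.07 to 0.44, with 95% intervals within −0.93 to 1.80. Smc4 was at 88.3, 89.1 and 96.8 CPM in the control and 71.7, 82.7 and 108 CPM with overexpression, which overlapped. The 4 epithelial markers summed to 44.6 to 64.1 CPM with the control plasmid and to 66.4 to 150 CPM with overexpression. Nearly all of it was Cdh1, at means of 51.2 and 111 CPM, with Epcam at 0, and its part in the result was not tested.

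**Figure D5:**
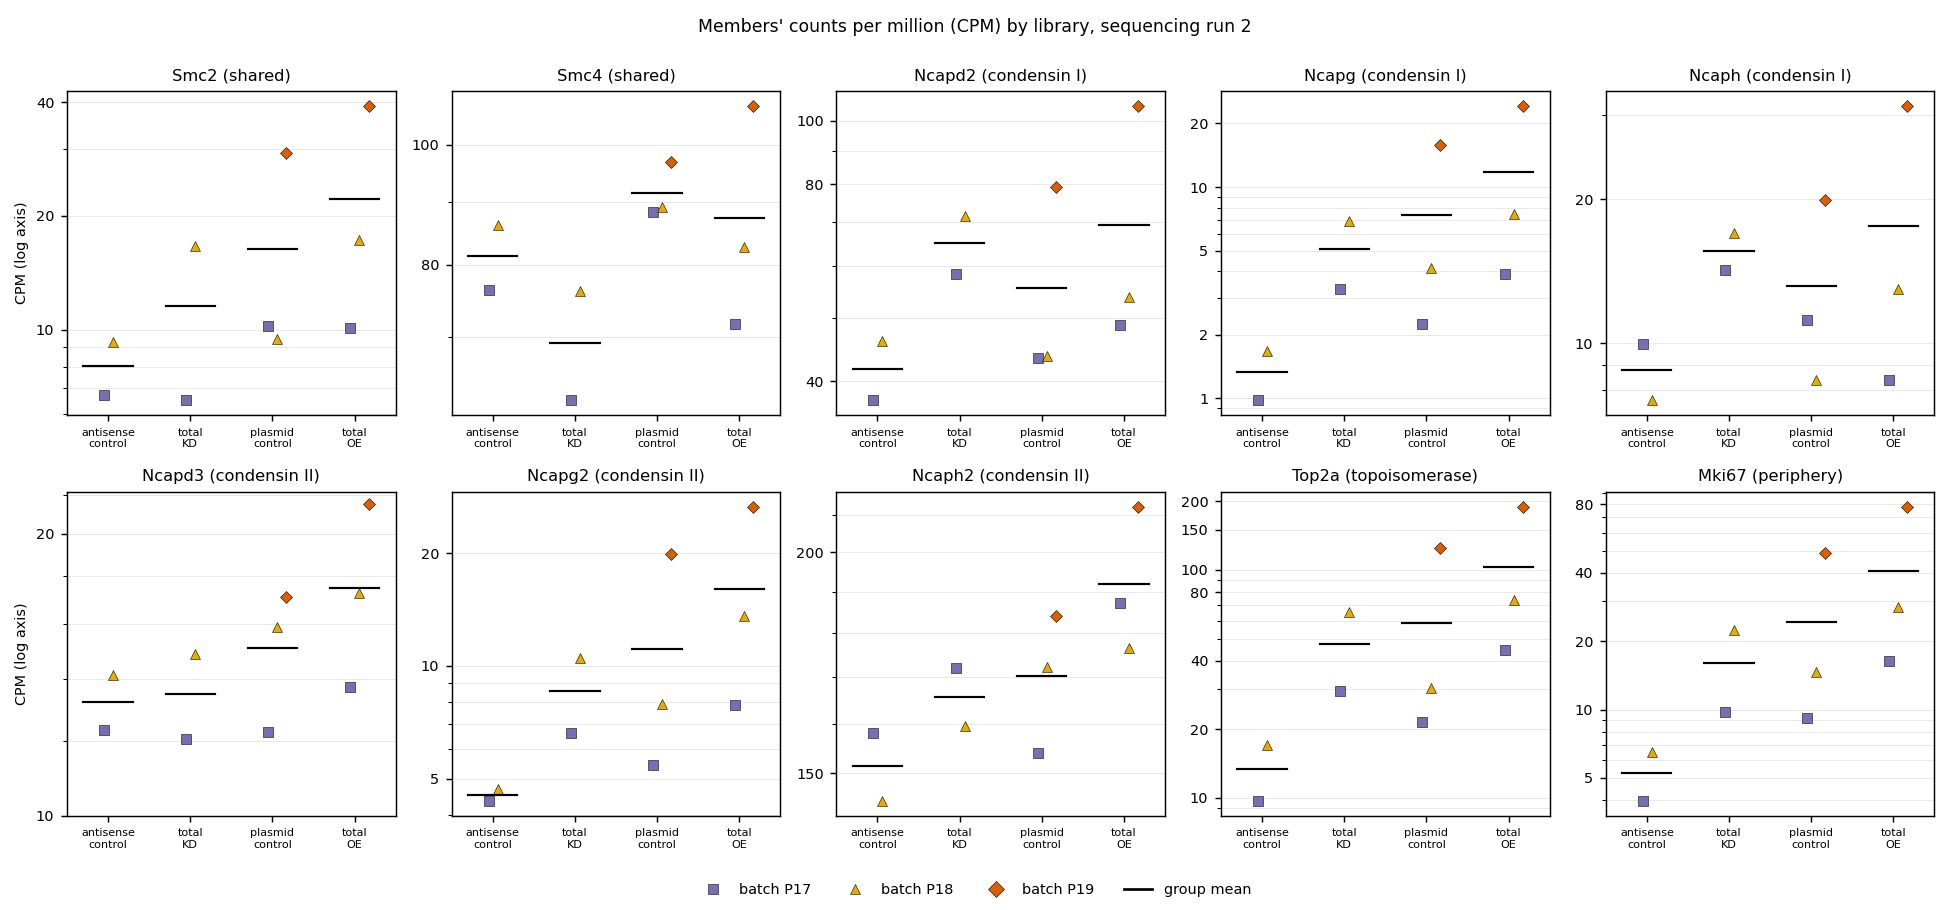
CPM of each member in every library of run 2 (log axes, 1 panel per gene; symbols mark batches P17 to P19, bars are group means of 2 or 3 libraries; KD is knockdown, OE overexpression). P19 is the highest library of both plasmid groups for all 10 members, for example at 124 and 189 CPM for Top2a.

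Genes that work with these members were counted from 4 lists, to be read against the shares of all genes called, which were 23.6% higher and 20.0% lower with PDGF-BB (28.3% and 26.2% with the replicate block), 12.3% higher and 12.8% lower in the long knockdown (20.0% and 20.6% with the block), and 13.4% higher and 13.3% lower in the knockdown under angiotensin II (20.4% and 20.9%). The first held 16 partners at the chromosome axis and periphery, among them the chromokinesin Kif4, which loads condensin I, and Mcph1, which restrains condensin II. With PDGF-BB 12 of the 16 rose and 0 fell, up to Kif4 at a log2 fold change of 3.57, with a median of 0.49 beside −0.02 over all genes. In the long knockdown Mcph1 rose (0.47) and 2 fell, Rif1 (−0.32) and the Ki-67 partner Nifk (−0.28), so that 1 of the 16 was higher. With the replicate block 2 rose and 9 fell. Under angiotensin II 1 rose and 5 fell (1 and 10 with the block), with Mcph1 at 0.63 and Kif4 at −1.64.

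A list of 12 kinases and cyclins includes those that phosphorylate condensins. It holds genes of mitotic entry and the spindle checkpoint, and also the casein kinase 2 subunits Csnk2a1, Csnk2a2 and Csnk2b. With PDGF-BB, where 23.6% of all genes were higher, 9 rose and 0 fell (11 and 0 with the block, where 28.3% were higher), from the mitotic kinase Cdk1 at 3.22 to Aurkb, the kinase of the chromosomal passenger complex, at 3.92, with a list median of 3.44. The long knockdown changed 0 of the 12 without the block (12.8% of all genes were lower) and lowered 7 with it (20.6%), from Ccnb2 at −1.99 to Plk1 at −0.88, and the list median was −1.15 beside 0.02 over all genes. Under angiotensin II 2 fell without the block, Ttk at −2.28 and Plk1 at −1.43, and with it 1 rose and 9 fell (20.4% and 20.9% of all genes). In the libraries labelled total knockdown and in overexpression 0 passed without the block and 9 rose with it in each, where 8.76% and 9.40% of all genes were called higher. Of the other 3 lists 0 genes passed without the block in either comparison. With it, 6 of the 16 axis and periphery partners rose in each and 1 fell in overexpression, where 5.63% and 8.33% of all genes were called lower in the total knockdown and overexpression.

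Of the 17 genes of cohesin, the related ring complex that holds sister chromatids together, 11 rose and 2 fell with PDGF-BB, where 23.6% of all genes rose and 20.0% fell. With the block 11 rose and 4 fell, beside 28.3% and 26.2%. The acetyltransferase Esco2 had the largest increase at 3.65, and securin (Pttg1) and Stag2 fell by 0.27 and 0.23 on the log2 scale. In the long knockdown 3 rose and 4 fell, beside 12.3% and 12.8% of all genes tested (with the block 6 and 8, beside 20.0% and 20.6%), among them the centromere protector Sgo1 at −1.65. Of the 8 genes of the SMC5/6 complex, the related ring complex that acts in DNA repair, 4 rose with PDGF-BB (5 with the block, where 28.3% of all genes did), from Nsmce1 at 0.46 to Slf1 at 1.03. In the long knockdown 2 of the 8 rose and 0 fell (3 and 1 with the block). Under angiotensin II the knockdown raised 4 and lowered 6 cohesin genes (5 and 9 with the block), and raised 1 and lowered 0 of the SMC5/6 list (1 and 2). These stand beside 13.4% and 13.3% of all genes, and 20.4% and 20.9% with the block. In run 2 with the block, 3 cohesin genes rose and 1 fell in the total knockdown, 2 rose and 0 fell in overexpression, and of the SMC5/6 list 0 changed and 1 fell. Angiotensin II alone changed 0 genes of any of the 4 lists.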

How the data were processed

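Expected counts per gene were deposited by the authors as 1 merged table of RSEM estimates for all 30 libraries. The submitters' processing notes name STAR 2.7.11b, RSEM 1.3.1 and the builds GRCm39 and mm10 without roles, and reads were paired 75 bp. Samples were grouped by their library names, and 0 columns were unmatched. Identifiers were paired with symbols through a reference table of gene names (51486 of 78334, holding 98.7% of counts), and transcript lengths came from GENCODE M21. Counts were rounded, and each run was fitted on its own with edgeR 4.0.16 in R 4.3.3: filterByExpr (minimum count 10, minimum total 15), TMM scaling, robust quasi-likelihood tests with all groups of a run sharing 1 dispersion fit, and Benjamini-Hochberg adjustment over 15350 genes (run 2) or 15103 (run 3) at 0.05. Precision is set by depth and spread: edgeR's biological coefficient of variation came to 0.232 for run 2 and 0.148 for run 3.

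The main model had no batch term. Replicate numbers follow the labelled batch within a run, so they pair libraries, and same-numbered libraries deviated together (mean r of deviations 0.23 over 13 pairs in run 2 and 0.197 over 40 in run 3, against −0.121 and −0.0606 for other pairs). Blocked values stand beside the members' results they change and beside the list counts given. The genes named besides the members were, for each list, those called with the smallest and largest change, and for each member those with the highest Pearson r of log2 CPM over the 20 libraries of run 3 (mean CPM of at least 5, symbols other than Gm and Rik names). Not every gene found by this rule is reported here. Markers and partners came from lists, and members and lists were chosen with earlier results of these data known. Alternatives tried were the block, RLE scaling, no filter, a mean CPM of 1, unrounded counts, the compared groups alone, a log2 fold change of at least 1, DESeq2 1.42.0, omission of batch P19 and omission of each library. The tests were first tried on simulated counts.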

Additional observations from a re-analysis of the deposited data

Results flagged for a closer look

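In 13 of 50 member-by-group sets of 4 libraries in run 3, 1 library stood apart by Dixon's criterion (gap over range above 0.829). For a single set, chance gives this about 1 time in 20. The 50 sets share libraries and hold genes that vary together, so 13 of 50 cannot be set against that rate. In all 13 the library was that of batch P19. In the long knockdown it was high for Mki67 (31.5 CPM, the others 1.68 to 3.56), Top2a (67.7, the others 17.4 to 21.2) and Ncapg (4.99, the others 0.420 to 0.668). In the knockdown with angiotensin II it was high for Mki67 (30.1 CPM, the others 1.62 to 4.19), Top2a (60.04, the others 18.8 to 22.3), Ncapg (5.33, the others 1.23 to 1.67) and Smc2 (23.6, the others 18.5 to 19.2). In the untreated control it was high for Ncapg (7.75 CPM, the others 3.14 to 3.74), Ncapg2 (18.7, the others 12.9 to 13.6) and Ncaph (14.8, the others 10.3 to 10.9). With PDGF-BB it was high for Smc2 (166.8 CPM, the others 123.0 to 126.4) and Ncapg2 (159.5, the others 120.1 to 123.0) and low for Ncapd2 (208.0, the others 247.5 to 252.9).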

How the results depend on the processing

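The 10 calls with PDGF-BB held in each alternative run, except that 9 passed a log2 fold change of at least 1 (not Ncaph2) and DESeq2 gave no adjusted p for Mki67 and called the other 9. No member was called for angiotensin II or the difference of its effects in any alternative. For the long knockdown, untreated, the 2 members called became 4 with the replicate block, 1 without a filter, 1 with the compared groups alone, 1 at a log2 fold change of at least 1 and 4 without batch P19; leaving out 1 library gave 1 to 4, and 3 to 4 with the block. Under angiotensin II the 2 became 5 with the replicate block, 1 with the compared groups alone, 1 at a log2 fold change of at least 1 and 4 without P19; leaving out 1 library gave 0 to 4, and 2 to 4 with the block. For the total knockdown the 0 became 5 with the replicate block, 4 without a filter and 2 with the compared groups alone, and with the block 4 to 6 when 1 library was left out, which leaves 1 library in a group, assumed to vary like the other groups, and so says little of stability. For overexpression the 0 became 5 with the replicate block and 2 without a filter, and with the block 3 to 4 when 1 library was left out. The block changed no call with PDGF-BB or angiotensin II.

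Across all genes the block moved the number called from 3783 to 6126 and from 4033 to 6238 in the long knockdown, from 317 to 2209 in the total knockdown and from 253 to 2721 with overexpression. Without the block, leaving out 1 library gave overexpression log2 fold changes of −0.12 to 0.67 for Ncapd2, −0.39 to 1.90 for Ncapg, −0.052 to 1.26 for Ncapg2, −0.12 to 1.79 for Mki67 and 0.01 to 1.99 for Top2a, the negative ones without the P19 overexpression library, its control then still including P19. In the total knockdown it gave 1.13 to 2.29 for Top2a and 1.32 to 2.38 for Ncapg. Condensin I minus condensin II with PDGF-BB was 0.023 per length. The cause of these changes was not tested. Block fits with 1 library or P19 left out were added after the data were seen. Depth limits Ncapg most, at 9.28 expected counts in its lowest library.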
